A study of Prunus persica with 16 samples.

Results

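Transcript levels in peach buds 7 days after treatment were compared with those 3 days after treatment, as an average over sprayed and untreated trees. All 16 libraries of the study entered the comparison, 8 of day 7 and 8 of day 3, and treatment was kept as a term in the model. Genes were tested where at least 4 of the 16 libraries had an FPKM (fragments per kilobase of transcript per 1e6 mapped fragments, a level corrected for gene length and depth) of 1 or more. This left 16596 of 26873 identifiers. Of the rest, 6275 were listed at 0 in all 16 libraries.

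The 4 groups, each of 4 libraries, were buds of day 7 after hydrogen cyanamide (HC), untreated buds of day 7, buds of day 3 after HC and untreated buds of day 3. All came from 5-year-old trees of TropicBeauty, a cultivar of low chilling need, on Floridaguard rootstock, in 1 orchard. The trees had received 11 of the 150 chilling hours that the cultivar needs when 4 of them were sprayed with HC at 1% (v/v), mixed with a non-ionic surfactant at 0.15% (v/v). As control, 4 trees were left without HC, and a spray of surfactant alone is not named in the labels. Both days share these 4 trees per treatment by that count, and the labels do not say whether a replicate number marks the same tree on both days. The tissue label is buds, and it could not be checked against marker genes because the identifiers were paired with no gene names. Each day was sampled on 1 date, so time after treatment and the conditions of that date cannot be told apart.

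A dormant bud of a temperate fruit tree holds a preformed shoot or flower whose growth is held back until enough cold has passed. Chilling releases that block, and warmth then drives growth to bud break. Hydrogen cyanamide is sprayed in orchards with too little winter cold because it brings bud break forward. In peach, a cluster of dormancy-associated MADS-box (DAM) genes, which code for transcription factors, is tied to this arrest, and its transcripts change with season and chilling.

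Sequencing depth, estimated from the deposited values, differed between the days. Estimated reads in genes ranged from 0.557 M to 16.8 M (M, 1e6 reads) at day 7, with a median of 3.49 M, and from 1.42 M to 22.0 M at day 3, with a median of 8.70 M. Untreated replicate 1 of day 7 was the shallowest library, and untreated replicate 2 of day 3 was next and had the fewest genes above 0 (8667, against 18378 in the library with the most). With the deeper libraries thinned to its depth of 1.42 M reads, it had 8653 genes above 0 and others had up to 17483. In bulk tissue, fewer cells of a type and less RNA per cell cannot be told apart.

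Between the days, 2041 genes changed, 1015 higher and 1026 lower at day 7 (limma on log2(FPKM + 1), Benjamini-Hochberg adjusted p under 0.05). They were 12.3% of the genes tested, with 6.12% higher and 6.18% lower, and 4194 genes had an unadjusted p under 0.05. In the same fit, HC and untreated buds differed for 216 genes, 1.3% of those tested, of which 145 were higher and 71 lower in HC. All 8 libraries of day 7 lay on 1 side of all 8 of day 3 for 617 genes, or 3.72%. Of these, 607 were also called, 318 higher and 289 lower.

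Since depth moved with day, the comparison was repeated at 1 depth. With all libraries but the shallowest thinned to 1.42 M estimated reads, 1978 genes were called, 1044 higher and 934 lower, and 1708 of them were among the 2041. Without the 2 libraries of fewest estimated reads the count was 2682, with 1344 higher and 1338 lower.

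The changes of the genes that rose had a larger median than those of the genes that fell, a difference that was not tested. The median log2 change was 1.82 among the 1015 higher genes (quartiles 1.21 and 2.38, median standard error 0.44) and -1.34 among the 1026 lower genes (quartiles -2.02 and -0.91, median standard error 0.30). Over all tested genes the median was 0.03 (quartiles -0.52 and 0.61, median standard error 0.53). Of the higher genes 840 (82.8%) had a log2 change of at least 1, and 703 of the lower genes (68.5%) had one of -1 or below. The largest changes were as many in either direction, with 12 genes at 5 or more and 12 at -5 or below. Of the genes that only just passed the filter on low values, 563 with an FPKM of 1 or more in exactly 4 libraries, 5 were called and the median level was 0.96 FPKM. The 642 genes just outside it, at that level in exactly 3 libraries, had a median of 0.71 FPKM.

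**Figure D1:**
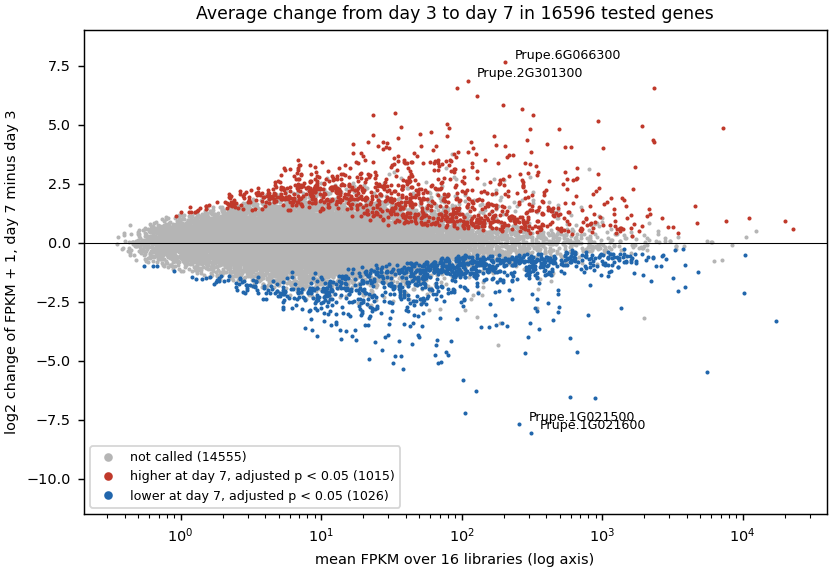
Average change of each of the 16596 tested genes, as the log2 change of FPKM + 1 at day 7 minus day 3 (vertical axis), against the mean FPKM over 16 libraries (log axis). Red points are the 1015 genes called higher at day 7, blue points the 1026 called lower and grey points the rest. The 4 genes described by library are labelled.

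The share of genes called was larger among abundant transcripts. Below a mean of 5 FPKM, 1.73% of 5029 tested genes were called higher and 1.13% lower. Between 5 and 20 FPKM the shares were 4.17% and 3.08%, and between 20 and 100 FPKM they were 8.48% and 9.27%. From 100 to 500 FPKM they reached 19.4% higher and 22.2% lower, and of the 387 genes at 500 FPKM or more, 23.8% were called higher and 33.3% lower. The median standard error was 0.53 below 5 FPKM and 0.60 between 5 and 20 FPKM, and fell to 0.14 at 500 FPKM or more, so genes of the top bins could pass with smaller changes. The median absolute log2 change of called genes was 1.77 below 5 FPKM, 2.15 between 5 and 20 FPKM and 0.81 at 500 FPKM or more. The called genes were also shorter by the length-like factor recovered from the deposited files, with medians of 0.81 (higher) and 0.76 (lower) relative to the tested genes.

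**Figure D2:**
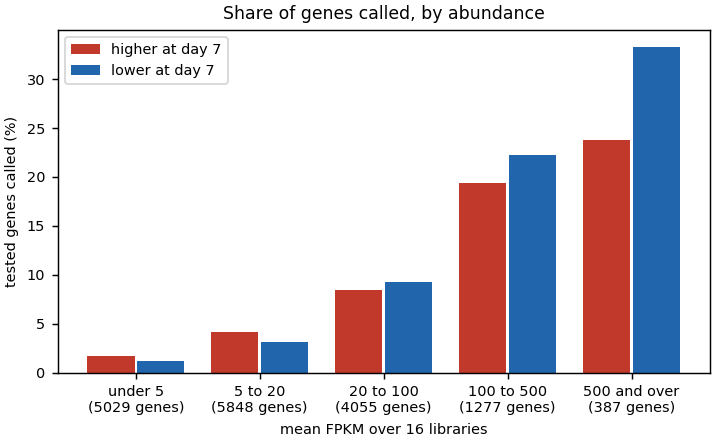
Share of tested genes called higher (red) or lower (blue) at day 7, in percent, by mean FPKM over 16 libraries, with the number of tested genes under each pair of bars. Both shares rise from under 2% below 5 FPKM to 23.8% and 33.3% at 500 FPKM and above.

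The set of most abundant transcripts differed in part between the days. Of the 100 genes with the highest mean level (at least 1500.1 FPKM), 27 were called higher and 32 lower at day 7. The shares were close to those of all genes at 500 FPKM or more, 23.8% higher and 33.3% lower. When the 100 most abundant genes were listed for each day, 64 stood on both lists. Of the 36 listed for day 7 alone, 32 were called higher, and of the 36 listed for day 3 alone, 31 were called lower. The lists were ranked by the same values that gave the calls, so high counts follow from the choice and are a description.

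The called genes made up a large share of all measured expression, and their share differed between the days. Genes called higher held 26.8% to 35.7% of summed FPKM in the day 7 libraries, against 10.6% to 15.1% in the day 3 libraries. Genes called lower held 13.5% to 17.3% at day 7, against 32.9% to 35.3% at day 3. At day 7 the higher genes held 26.8% to 31.0% in HC libraries and 30.3% to 35.7% in untreated ones. At day 3 they held 10.6% to 12.6% in HC libraries and 12.045% to 15.1% in untreated ones, so that the groups overlapped. The genes were chosen by these same values, so the shares are a description and were not tested.

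Of the 2 genes with the highest changes among those whose days did not overlap, Prupe.6G066300 came first. It had 209, 224, 289 and 956 FPKM in HC and 381, 197, 603 and 400.1 FPKM in untreated buds of day 7. At day 3 it was listed at 0.38, 0, 0 and 0 FPKM in HC and at 0.43, 0, 4.38 and 8.33 FPKM in untreated buds. Every library of day 7 lay above every library of day 3, with the lowest value of day 7 at 197 FPKM and the highest of day 3 at 8.33 FPKM. The change was 7.63 ± 0.48 on the log2 scale (SE, adjusted p = 1.5e-09), and it rested on 9063 estimated reads at day 7 against 106 at day 3.

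Prupe.2G301300 had 113, 111, 96.6 and 276 FPKM in HC and 494, 158, 248 and 263 FPKM in untreated buds of day 7. Its day 3 levels were 1.72, 0, 1.39 and 2.54 FPKM in HC and 0.22, 0.86, 0.07 and 0 FPKM in untreated buds. No library of day 3 exceeded 2.54 FPKM and none of day 7 fell below 96.6 FPKM. The log2 change was 6.85 ± 0.43 (SE, adjusted p = 1.5e-09), from 17901 estimated reads at day 7 and 189 at day 3.

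The genes with the lowest changes were Prupe.1G021600 and Prupe.1G021500, which are neighbours in the list of identifiers. Prupe.1G021600 was at 0, 0.55, 3.08 and 0.55 FPKM in HC and at 0, 15.02, 0 and 0.22 FPKM in untreated buds of day 7. Its levels at day 3 were 129, 465, 544 and 272 FPKM in HC and 1392, 565, 776 and 841 FPKM in untreated buds. Apart from 1 untreated library at 15.02 FPKM, no library of day 7 exceeded 3.08 FPKM. Its log2 change was -8.05 ± 0.54 (SE, adjusted p = 3.5e-09), with 35 estimated reads at day 7 and 22572 at day 3.

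Prupe.1G021500 was at 0, 0.95, 2.00 and 1.44 FPKM in HC and at 3.07, 0, 0 and 5.6 FPKM in untreated buds of day 7. Buds of day 3 had 213, 352, 603 and 349 FPKM in HC and 1144, 179, 543 and 734 FPKM in untreated buds. The days were separated by the gap between 5.6 and 179 FPKM. The log2 change was -7.70 ± 0.46 (SE, adjusted p = 8.8e-10), with 39 estimated reads at day 7 and 24297 at day 3. All 4 genes were called in each of 32 alternative analyses. They were picked for the largest changes in these same values, so their p-values and these calls are a description. Prupe.6G066300, Prupe.2G301300 and Prupe.1G021600 could pass the filter on low values only with libraries of the day where they were high.

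**Figure D3:**
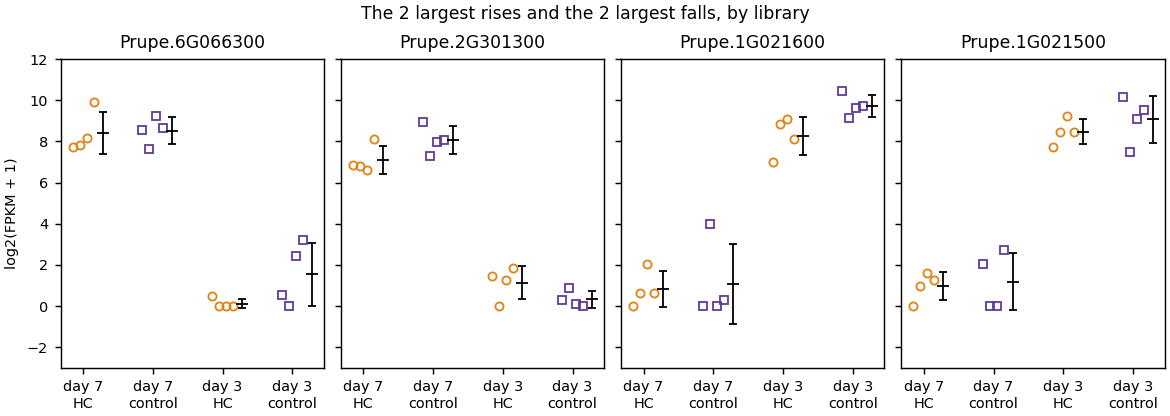
Levels of the 4 genes in each library as log2(FPKM + 1), with HC buds as circles, untreated buds as squares, day 7 on the left and day 3 on the right of each panel. Bars give the mean and SD of 4 libraries. In Prupe.6G066300 and Prupe.2G301300 all day 7 libraries lie above all day 3 libraries, and in Prupe.1G021600 and Prupe.1G021500 all lie below.

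Some genes were listed at 0 throughout 1 day. Such a gene could pass the filter on low values only through the libraries of the other day, so the counts are a description. Among the genes called higher, 13 were at 0 in all 8 libraries of day 3, and 32 genes with that pattern had been tested. Their mean level at day 7 ran from 1.85 to 12.8 FPKM, with a median of 5.30 FPKM. Among the genes called lower, 14 were at 0 in all 8 libraries of day 7, with 28 such genes tested, and their mean at day 3 ran from 1.10 to 212 FPKM with a median of 8.46 FPKM. No fold is given for these genes. Their median number of estimated reads, summed over the libraries of the other day, was 249 at day 7 and 500.5 at day 3.

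A stricter pattern, under 1 FPKM in all 8 libraries of 1 day and at least 10 FPKM in all 8 of the other, held for 1 gene in each direction, and both were named after their values were seen. Prupe.6G066500 was at 24.3 to 70.6 FPKM in HC and 31.2 to 76.3 FPKM in untreated buds of day 7, while at day 3 a single untreated library had 0.51 FPKM and the other 7 were at 0. Prupe.5G090700 was listed at 0 in all 8 libraries of day 7. At day 3 it had 95.4, 97.4, 57.5 and 35.7 FPKM in HC and 279, 546, 356 and 229 FPKM in untreated buds, from 3114 estimated reads in all. Its average change between the days was called (adjusted p = 1.0e-09). The gene was picked for its gap between the days, so this p-value is a description and no separate support. The HC libraries of day 3 lay below the untreated ones, but the difference of the changes between the treatments did not pass the test (adjusted p = 0.22).

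Called genes were spread over all parts of the identifier list. By the prefix of the identifier, from 1G to 8G, the share called ran from 11.7% (5G) to 12.9% (1G), against 12.3% over all tested genes, and 4 of the 28 tested genes with the prefix I were called. Neighbouring identifiers were called the same way more often than identifiers at large, which is given as a description with no test. The next identifier was also called higher for 6.31% of the higher genes, where 3.78% of all identifiers were called higher. For the lower genes the share was 7.12%, against 3.82% of all identifiers. The next identifier was called the other way for 3.25% of the higher and 3.51% of the lower genes. Runs of 2 or more neighbours called in 1 direction held 118 of the higher genes (11.6%, in 54 runs) and 139 of the lower genes (13.5%, in 66 runs). Whether neighbours are close copies, between which reads may have been split, was not checked here, so the level of each single member of a run is uncertain.

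The longest run of higher genes was of 5 identifiers, Prupe.6G066100 to Prupe.6G066500, and it holds the gene with the highest change. The run was picked from called genes, so the p-values of its members are a description. Prupe.6G066100 averaged 759 ± 268 FPKM at day 7 and 45.4 ± 24.0 FPKM at day 3 (SD, n = 8 each, log2 change 4.17 ± 0.31, SE, adjusted p = 1.6e-08). It was the most abundant of the 5 on both days and the only one with a value above 0 in every library of day 3. Prupe.6G066500 changed by 5.41 ± 0.39 (SE, adjusted p = 1.0e-08). It was at 0 in 7 libraries of day 3 and was also picked above for its gap, so this p-value is a description.

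The other members of that run were uneven between libraries. Prupe.6G066200 had 41.5, 0, 90.7 and 97.6 FPKM in HC and 52.8, 78.5, 59.9 and 159 FPKM in untreated buds of day 7. Of the day 3 libraries, it had 15.5 FPKM in HC replicate 1 and 0.52 FPKM in untreated replicate 3, and the other 6 were at 0. The days overlapped through HC replicate 2 of day 7 at 0 and HC replicate 1 of day 3, and the log2 change was 4.90 ± 0.87 (SE, adjusted p = 0.00069). Prupe.6G066200 could pass the filter on low values only with libraries of day 7, so this p-value is a description. The call was lost with the 8 HC libraries alone (adjusted p = 0.143, range over 32 alternatives 2.5e-06 to 0.143).

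Prupe.6G066400 had 9.30, 19.3, 0 and 108 FPKM in HC and 9.48, 15.3, 38.3 and 46.9 FPKM in untreated buds of day 7. At day 3 it was at 38.8 FPKM in untreated replicate 1 and at 0 in the other 7 libraries. Its log2 change was 3.43 ± 0.86 (SE, adjusted p = 0.0112), and it rested on 225 estimated reads at day 7 and 27 at day 3, with the reads of day 3 all in that 1 library. Prupe.6G066400 too could pass the filter on low values only with libraries of day 7, so this p-value is a description. With the 8 untreated libraries alone it was no longer called (adjusted p = 0.187, range over 30 alternatives 0.00055 to 0.187).

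The longest run of lower genes was of 5 identifiers too, Prupe.1G021400 to Prupe.1G021800, with the 2 largest falls at its centre. In all 5 members every library of day 7 lay below every library of day 3. Prupe.1G021800 averaged 67.7 ± 55.4 FPKM at day 7 and 1267 ± 377 FPKM at day 3 (SD, n = 8 each, log2 change -4.63 ± 0.35, SE, adjusted p = 3.6e-08). Prupe.1G021400 averaged 59.3 ± 40.7 FPKM at day 7 and 656 ± 122 FPKM at day 3 (-3.67 ± 0.22, adjusted p = 8.8e-10). Its HC libraries of day 7 were close to each other, at 28.6 to 33.4 FPKM, and its untreated libraries of that day were at 51.4 to 125 FPKM.

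Prupe.1G021700, between them, was listed at 0 in all 8 libraries of day 7. At day 3 it had 2.88, 11.2, 26.3 and 30.0 FPKM in HC and 43.4, 138, 53.3 and 48.8 FPKM in untreated buds, from 1203 estimated reads in all. Its average change between the days was called (adjusted p = 2.0e-06). With day 7 at 0 throughout, it could pass the filter on low values only through day 3, so this p-value is a description. Each HC library of day 3 lay below each untreated one, but the difference of the changes between the treatments did not pass the test (adjusted p = 0.46). All 5 members were called in each of 32 alternative analyses. The run was picked from called genes, so these calls and the p-values of its members are a description.

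**Figure D4:**
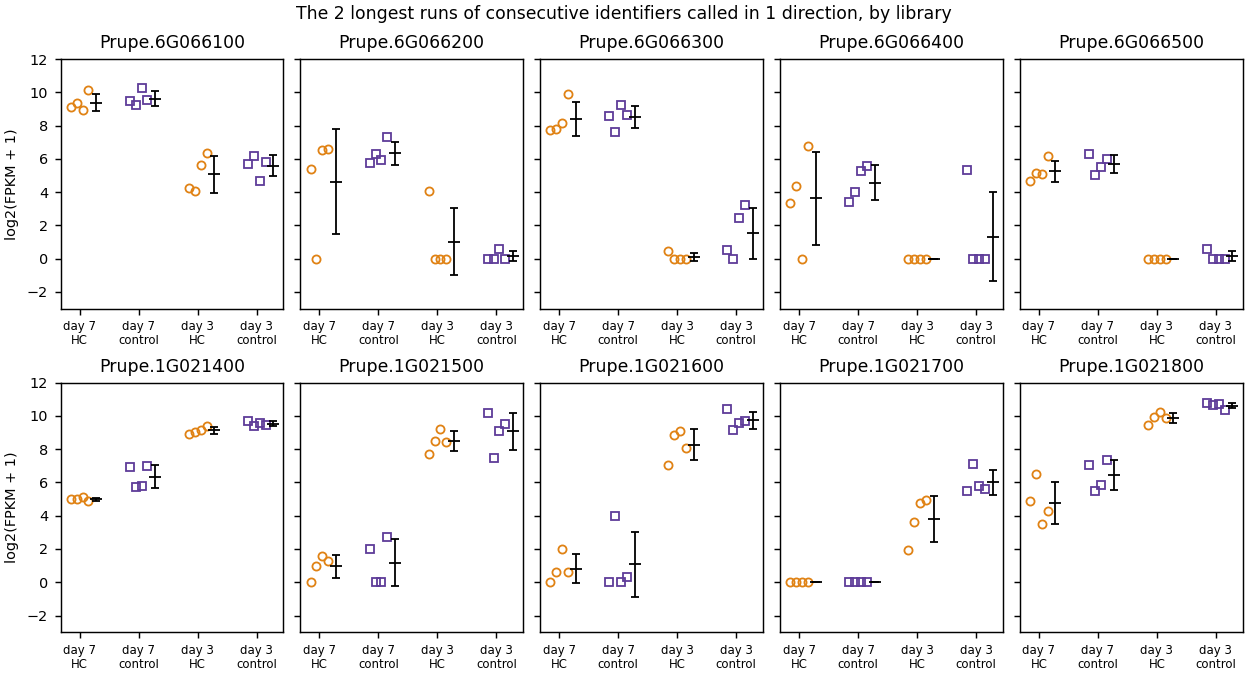
Levels in each library as log2(FPKM + 1) of the 5 neighbouring identifiers called higher (upper row) and the 5 called lower (lower row) at day 7, with HC buds as circles and untreated buds as squares. Bars give the mean and SD of 4 libraries. The lower row shows no overlap between the days in any of its 5 genes, and in the upper row Prupe.6G066200 and Prupe.6G066400 overlap through single libraries.

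An average over treatments describes both only where HC and untreated buds changed alike, and each treatment had its own libraries of both days. Fitted with 1 mean per group, 1034 genes changed in HC buds (6.23% of those tested) and 1221 in untreated buds (7.36%). Fitted on its own 8 libraries, each treatment gave the other order. The calls were 1820 of 15204 tested genes in HC and 578 of 14003 in untreated buds. The untreated libraries include the shallowest, replicate 1 of day 7 (0.557 M estimated reads), and the next, replicate 2 of day 3 (1.42 M). Whether depth set this order was not tested, so the order is no measure of a difference between the treatments. The lists of the joint fit had in common 433 genes called in the same direction, 217 higher and 216 lower, which are 41.9% of the HC list and 35.5% of the untreated list. Both lists used the same estimate of each gene's spread, and no test of their overlap was made.

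Of the 1015 genes called higher on average, 217 were also called in both treatments, 206 in HC alone, 247 in untreated buds alone and 345 in neither. Of the 1026 called lower, 216 were called in both, 153 in HC alone, 314 in untreated buds alone and 343 in neither. A call in 1 treatment alone does not show that the treatments differed. The median change of the higher genes was 1.67 in HC and 1.72 in untreated buds, and that of the lower genes was -1.16 in HC and -1.37 in untreated buds. The change had the same sign in both treatments for 2035 of the 2041 called genes (99.7%), where 61.6% of tested genes had it, and a high share follows from choosing genes by their average. The changes of HC and untreated buds lay within 2-fold of each other for 642 of the higher and 742 of the lower genes. Together they were 67.8% of the called genes. The share over all tested genes was not counted, so this is a description.

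Tested directly, the change between the days differed between HC and untreated buds for 81 genes, 0.488% of those tested. The change was more positive in HC for 59 and more negative for 22. Median-of-ratios scaling gave 77 genes, split into 45 and 32, and the median over all tested genes was -0.02 under it, against 0.10 without it. Of the 81, 27 were also called in the average change, 17 of them higher and 10 lower, and 54 were not. In 44 of the 81 genes the estimate was positive in HC and negative in untreated buds, in 12 it was the reverse, in 22 the signs were equal and in 3 the estimate of 1 treatment was 0.

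This number moved with single libraries. It fell to 44, 44 and 40 without HC replicate 1, 3 or 4 of day 3 and 45, 42 and 34 without HC replicate 1, 3 or 4 of day 7. It fell to 46 and 47 without untreated replicate 3 or 4 of day 3, 51 and 46 without untreated replicate 3 or 4 of day 7, and it reached 107 without untreated replicate 2 of day 3.

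**Figure D5:**
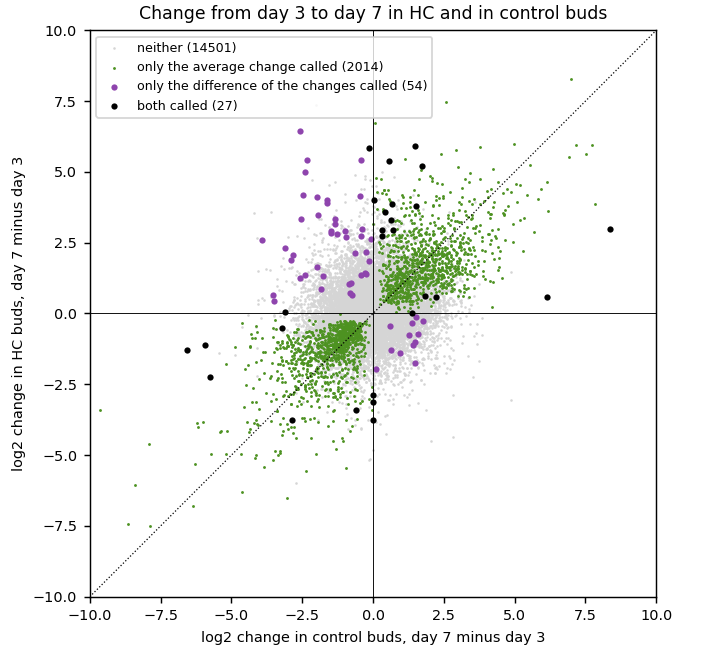
Change from day 3 to day 7 in HC buds (vertical axis) against that in untreated buds (horizontal axis), each as log2 of FPKM + 1 at day 7 minus day 3, for 16596 tested genes. Green points were called in the average change only (2014), purple points only in the difference of the changes (54), black points in both (27) and grey points in neither (14501). Green points lie around the dotted line of equal change, and most purple points lie in the upper left, with positive changes in HC and negative ones in untreated buds.

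For the genes with the most different changes, the average did not describe both treatments. They were picked among called genes by the size of this difference. Its p-values and its calls in the alternatives are therefore a description. Prupe.6G021700 had 483, 462, 552 and 838 FPKM in HC and 5.94, 254, 47.3 and 116 FPKM in untreated buds of day 7. In buds of day 3 it had 6.44, 25.4, 20.6 and 6.21 FPKM in HC and 230.1, 440, 212 and 285 FPKM in untreated buds. The HC libraries were thus the higher ones at day 7 and the lower ones at day 3. Its change was 5.42 in HC and -2.32 in untreated buds, a difference of 7.75 ± 1.11 (SE, adjusted p = 0.0042), and its average change did not pass the test (1.55 ± 1.19, adjusted p = 0.47). The difference was called in all 21 alternatives.

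Prupe.6G021100 had 388 to 653 FPKM in HC and 0 to 306 FPKM in untreated buds of day 7, and 0 to 25.3 FPKM in HC and 117 to 279 FPKM in untreated buds of day 3. The difference was 9.03 ± 1.82 (SE, adjusted p = 0.041) and the average change 1.93 ± 1.52 (adjusted p = 0.49). The call of the difference was lost when any 1 library was left out, apart from HC replicate 2 of day 3 and untreated replicates 1 and 2 of day 7, and it held in 7 of 21 alternatives (adjusted p 0.00067 to 0.19).

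Prupe.8G000400 had 177 to 272 FPKM in HC and 356 to 1215 FPKM in untreated buds of day 7, and 13.2 to 50.8 FPKM in HC and 0 to 20.7 FPKM in untreated buds of day 3. It was higher at day 7 on average by 5.68 ± 0.86 on the log2 scale (SE, adjusted p = 0.00031), by 2.99 in HC and 8.37 in untreated buds. The difference of -5.38 ± 1.07 (adjusted p = 0.028) was called in 7 of 21 alternatives (adjusted p 0.00013 to 0.11). Among other fits it was lost without any 1 untreated library of day 3 other than replicate 3, any HC library of day 3 other than replicate 1, any untreated library of day 7 other than replicate 2 and any HC library of day 7 other than replicate 2.

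Prupe.8G110900 had 405 to 851 FPKM in HC and 72.8 to 313 FPKM in untreated buds of day 7, and 117 to 597 FPKM in HC and 0 to 14.1 FPKM in untreated buds of day 3. Its average change of 3.36 ± 0.90 (SE, adjusted p = 0.023) came with a change of 0.58 in HC and 6.13 in untreated buds. The difference of -5.55 ± 1.046 (adjusted p = 0.025) was called in 10 of 21 alternatives (adjusted p 0.0012 to 0.14). It was lost without untreated replicate 3 or 4 of either day, HC replicate 3 or 4 of either day or HC replicate 1 of day 3, with a pseudocount of 0.1 (adjusted p = 0.14) and with a block for replicate number within treatment (adjusted p = 0.091).

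In 6 genes the fit with 1 mean per group called changes of opposite direction in the treatments, and none of the 6 was called in the average change. They were named after their values were seen. Opposite changes cancel in an average, so the lack of average calls follows from the choice of genes, as does a difference between the treatments. Prupe.8G064100 averaged 908 ± 218 FPKM in HC and 2996 ± 285 FPKM in untreated buds of day 7, and 1489 ± 290 FPKM in HC and 999.7 ± 129 FPKM in untreated buds of day 3 (SD, n = 4 each). It fell by 0.72 ± 0.17 in HC and rose by 1.59 ± 0.17 in untreated buds on the log2 scale (SE, adjusted p = 0.0117 and 5.0e-06), and its average change was 0.43 ± 0.31 (adjusted p = 0.42). Prupe.3G284000 fell by 1.39 in HC and rose by 0.96 in untreated buds.

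The other 4 rose in HC and fell in untreated buds. Prupe.2G232200 averaged 1248 ± 215 FPKM in HC and 294 ± 234 FPKM in untreated buds of day 7, and 90.9 ± 62.4 FPKM in HC and 761 ± 61.7 FPKM in untreated buds of day 3 (SD, n = 4 each, changes of 4.01 and -1.63). Prupe.5G164100 changed by 1.90 in HC and -2.89 in untreated buds, Prupe.5G118000 by 1.65 in HC and -1.98 in untreated buds, and Prupe.5G206800 by 0.72 in HC and -0.80 in untreated buds. The difference between the treatments was called in all 21 alternatives for 4 of the 6 genes. The alternatives reuse the values by which the genes were chosen, so these calls are a description. Prupe.3G284000 was not called under voom on estimated reads (adjusted p = 0.29, range 0.0023 to 0.29). Prupe.5G118000 was not called without HC replicate 4 of day 7 (adjusted p = 0.060, range 0.0019 to 0.060) or with a block for replicate number within treatment (adjusted p = 0.060).

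The DAM genes were looked up by 6 identifiers, which rest on general knowledge of peach gene models, since no file pairs these identifiers with names. They are close copies of each other, so reads shared between them make each level uncertain. Neither Prupe.1G531200 nor Prupe.1G531300 had a value above 0 in any of the 16 libraries, and of the other 4, 1 was called. Of all tested genes 12.3% were called, but these 4 were abundant, with means of 109 to 923 FPKM over 16 libraries. The share called was 41.7% among tested genes at 100 to 500 FPKM and 57.1% at 500 FPKM or more. Prupe.1G531100 had 104, 129, 120.5 and 81.4 FPKM in HC and 188, 92.3, 289 and 255 FPKM in untreated buds of day 7. Its day 3 values were 17.2, 17.4, 35.1 and 43.2 FPKM in HC and 97.4, 78.9, 106 and 87.5 FPKM in untreated buds. The HC libraries of the days did not overlap, and the untreated ones did. The average log2 change was 1.52 ± 0.28 (SE, adjusted p = 0.00091), and it was lost only with the 8 untreated libraries alone (adjusted p = 0.143, range over 32 alternatives 9.0e-05 to 0.143).

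The other 3 DAM identifiers did not pass the test. Prupe.1G531400 averaged 499 ± 237 FPKM at day 7 and 362 ± 220 FPKM at day 3 (SD, n = 8 each, log2 change 0.56 ± 0.19, SE, adjusted p = 0.065). It was called in 8 of 32 alternatives, among them without untreated replicate 2 of day 3 (adjusted p = 0.014) and without untreated replicate 4 of day 7 (adjusted p = 0.022, range 0.0050 to 0.59). Prupe.1G531600 averaged 204 ± 155 FPKM at day 7 and 386 ± 221 FPKM at day 3 (-1.08 ± 0.50, adjusted p = 0.19). It was called in 4 of 32 alternatives, among them without untreated replicate 2 of day 3, the library with the fewest genes above 0 (-1.48, adjusted p = 0.0105, range 0.0034 to 0.86). Prupe.1G531700, the most abundant of the 4, averaged 1007 ± 361 FPKM at day 7 and 839 ± 234 FPKM at day 3 (0.23 ± 0.11, adjusted p = 0.18) and was called in none of 32 alternatives.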

How the data were processed

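Bud mRNA was sequenced in 16 libraries, prepared by the Illumina TruSeq mRNA method, per the labels' protocols. Per the submitters' processing notes, the tools were RSEM 1.2.31, STAR 2.5.2a and Trimmomatic. Which genome build was used is not given in the sources used here. As expression values, the authors deposited 1 matrix of values per gene, taken as FPKM from the numbers (98.9% to 99.2% of values above 0 were not whole, and libraries summed to 1052238 to 1209106 FPKM). For each day they also deposited a table with log2 fold changes of HC over control, adjusted p-values and a signal value per treatment. The log2 fold changes and p-values of these deposited tables were not used here. The deposited signal served only to recover a length-like factor per gene, from its ratio to FPKM.

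Low FPKM values, multiplied by that factor, were near multiples of 1 step per library, and the step was read as 1 fragment. Between 86.1% and 98.0% of low values per library lay within 0.2 of a whole number of steps. A step fixed in advance would give 40% by chance. The step was chosen by its fit to these same values, so the share is a description. The resulting estimated reads were used for depth, a voom fit and thinning. They cover genes with the factor, 16568 of the 16596 tested.

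The test was limma 3.58.1 in R 4.3.3 on log2(FPKM + 1), with treatment and day as terms and empirical Bayes with trend and robust settings (statmod 1.5.0). A second fit with 1 mean per group gave the changes within each treatment and their difference. Adjusted p-values are Benjamini-Hochberg over all genes tested, with a threshold of 0.05. The scale understates changes of low genes, and an FPKM of 0 says only that a gene is listed at 0. Estimated reads carry counting error as well as the spread between libraries. Replicates were separate trees per the labels, and the libraries were treated as independent.

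None of the 26412 genes in the reference table carried any of the 26873 identifiers (0 matches), so lists by gene product were not counted and no sequences are shown. Genes were named by a rule: the 2 highest and 2 lowest average changes among called genes with no overlap between the days and a mean FPKM of 1 or more, the 2 most positive and 2 most negative differences between treatments, the DAM identifiers, and the longest run of neighbouring identifiers called in each direction. Comparison, lists and rules were chosen with earlier results of these data known. On simulated reads with known changes (17053 genes), the average comparison called 10.2% of genes changed 2-fold, 42% of those changed 4-fold, 74% at 8-fold and 90% at 16-fold, and 4 of 112 calls were false. Only 49 or 50 tested genes were changed at each fold, and the data gave 2041 calls. Adjustment is stricter where fewer genes change, so these rates do not give the power of the comparison in the data. Alternatives varied the pseudocount, filter, scaling, model, block, weights and libraries.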

Additional observations from a re-analysis of the deposited data

Results flagged for a closer look

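Of 92 groups of 4 libraries checked, over the genes named by the rule and the library totals, 11 had 1 value apart from the other 3 by more than Dixon's test allows, and chance alone gives about 1 in 20 groups. That chance rate does not hold for all 92, since groups at 0 in all 4 libraries, such as those of Prupe.1G531200 and Prupe.1G531300, can hold no value apart. In 5 of the 11 the other 3 libraries were at 0, so that any value above 0 stood apart and that chance rate does not apply. Among day 7 libraries, these were Prupe.1G021600 at 15.02 FPKM in untreated replicate 2, Prupe.2G301300 at 276.38 FPKM in HC replicate 4, Prupe.8G110900 at 851.48 FPKM in HC replicate 1 and the estimated reads of HC replicate 1 (16.7975 M, M being 1e6 reads). Among untreated day 3 libraries, they were Prupe.6G021100 at 279.34 FPKM in replicate 2, Prupe.8G000400 at 20.7 FPKM in replicate 3, Prupe.6G066200 at 0.52 FPKM in replicate 3, and Prupe.6G066400 at 38.83 FPKM and Prupe.6G066500 at 0.51 FPKM in replicate 1. HC replicate 1 of day 3 stood apart in Prupe.6G066200 (15.48 FPKM) and Prupe.6G066300 (0.38 FPKM).

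The change between the days differed between HC and untreated buds, in a test of the difference itself, for 81 genes. The named ones had a difference, HC minus untreated, of 9.0345 (Prupe.6G021100), 7.7451 (Prupe.6G021700), -5.5507 (Prupe.8G110900) and -5.3768 (Prupe.8G000400) on the log2 scale.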

How the results depend on the processing

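The alternative with thinned reads was added after the data were seen. The count of genes in the average change, 2041, was 1717 to 2418 without 1 library and stayed within 1.5 times in 30 of 32 alternatives. It moved to 3458 with quality weights and to 578 with the 8 untreated libraries alone. It was 1820 with the 8 HC libraries alone and 2811 with voom on estimated reads. No change of a named gene reversed its sign in the alternatives run. The count of genes whose change differed between treatments, 81, was 34 to 107 without 1 library, 41 with a pseudocount of 0.1 and 226 with voom. The count called in the same direction in both treatments, 433, was 340 to 577 without 1 library and moved to 669 with voom. The cause of these moves was not tested.

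Of the DAM identifiers, 1 was called. The number was 1 to 3 without 1 library, 2 with a mean FPKM of 20 or more, with median-of-ratios scaling, with TMM scaling, with voom and with the 8 HC libraries alone, 3 with quality weights and without the 2 shallowest libraries, and 0 with the 8 untreated libraries alone. Over all tested genes the share called was 12.3% as reported, 20.8% with quality weights, 16.2% without the 2 shallowest libraries and 4.13% with the untreated libraries alone.

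Whether a replicate number marks the same tree on both days could not be settled from the values. Buds of 1 tree from different dates need not share deviations, so low correlations do not exclude pairing. Same-numbered libraries of 1 treatment had correlations of deviations from -0.033 to 0.125, over 0.1 in 1 of 8 pairs, and 3 of 8 day 7 libraries correlated best with their own number. With a replicate block within treatment the average comparison called 1629 genes, and with replicate number alone as a block 1877. The block within treatment gave 38 genes for the difference between treatments.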
